A study of Mus musculus with 6 samples.

Results

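The genes described here are the 35 genes of the unfolded protein response and the integrated stress response, out of the 57180 genes of the deposited expression table. They were listed by gene name, and the rule uses no measured value, but the list was drawn up with earlier results of these data known. It holds 14 chaperones and folding enzymes of the endoplasmic reticulum (ER), 9 genes of ER-associated degradation and translocation, 4 sensors and their transcription factors, and 8 genes of the ATF4-CHOP branch. Primary hepatocytes of male mice of C57BL/6 background, whose age is given for all animals of the study together as 8 to 10 weeks, were cultured in medium with serum and dexamethasone and exposed for 24 h to 0.1 mM of palmitic acid (PA), a saturated fatty acid, and their RNA was sequenced in 6 libraries. The 3 LOXP libraries came from mice with a floxed Sting gene, and the 3 KO libraries from liver-specific STING knockout (STINGLKO) mice. The knockout mice carry the floxed gene together with the Albumin-Cre transgene, in which the albumin promoter drives Cre in hepatocytes. The PA treatment, the sex, the background and the culture were shared by both groups, so no library shows the hepatocytes without PA. Whether each library came from a separate animal was not given in the sources used here, so the spread between replicates may be technical in part.

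In the ER, newly made secretory proteins are folded by chaperones such as BiP and by protein disulfide isomerases, and proteins that fail to fold are passed back to the cytosol for degradation. The sensors IRE1 (Ern1), PERK (Eif2ak3) and ATF6 respond to unfolded protein. IRE1 splices the Xbp1 mRNA, ATF6 is cleaved into a transcription factor, and both raise the transcription of chaperone and degradation genes. PERK phosphorylates the translation factor eIF2, which lowers protein synthesis in general while the transcription factor ATF4 is translated, and ATF4 in turn raises genes of amino acid supply and the factor CHOP (Ddit3). The same arm can be entered through other eIF2 kinases and is then called the integrated stress response. Hepatocytes secrete large amounts of plasma protein and hold an extensive ER, and saturated fatty acids are a known ER stressor in these cells. A gene count measures neither the splicing of Xbp1 nor any cleavage, phosphorylation or protein level.

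The promoters of several of these genes hold a short sequence through which ATF6 and XBP1 are known to act, and the sequences are shown here because the branches described below divide genes that share it. The ER stress response element (ERSE) was searched as CCAAT and CCACG separated by 9 bases of any kind, and ERSE-II as ATTGG, 1 base of any kind and CCACG, both on either strand. The 2 elements are built of the same parts, since ATTGG is the reverse complement of CCAAT, but no window of the 35 genes held both. In RefSeq promoter windows of build GRCm38.p6, from 250 bases before to 50 bases after the annotated start, ERSE matched 39 of 32851 windows of all genes (0.119%). A window was found for 31 of the 35 genes, and 9 of them held an ERSE (29%), namely Hspa5, Hsp90b1, Calr, Canx, Pdia6, Dnajc3, Creld2, Syvn1 and Derl3. ERSE-II matched 12 windows of all genes (0.0365%) and those of Herpud1 and Dnajb11. The core of the XBP1-bound element, TGACGTGG, and the C/EBP-ATF response element of ATF4 targets, TGATGNAAT, matched 222 (0.676%) and 317 (0.965%) windows of all genes and 0 of the 31. All elements were searched only in these exact forms, so a window without a match may still hold a variant. The last 250 bases before the start are printed below, 5′ to 3′ on the gene's strand, with each match in capitals. They are those of BiP (Hspa5, chr2:34771840-34772089, plus strand), of 3 chaperone genes with an ERSE that were higher in the KO libraries (Hsp90b1, chr10:86705445-86705694, minus strand; Pdia6, chr12:17266339-17266588, plus strand; Creld2, chr15:88819396-88819645, plus strand) and of Herpud1 (chr8:94386179-94386428, plus strand), which holds an ERSE-II and was lower.
Hspa5: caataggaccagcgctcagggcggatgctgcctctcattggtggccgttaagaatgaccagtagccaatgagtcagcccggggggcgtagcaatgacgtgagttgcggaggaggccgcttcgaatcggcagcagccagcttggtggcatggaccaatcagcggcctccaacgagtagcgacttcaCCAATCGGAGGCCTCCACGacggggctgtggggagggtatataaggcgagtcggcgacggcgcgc
Hsp90b1: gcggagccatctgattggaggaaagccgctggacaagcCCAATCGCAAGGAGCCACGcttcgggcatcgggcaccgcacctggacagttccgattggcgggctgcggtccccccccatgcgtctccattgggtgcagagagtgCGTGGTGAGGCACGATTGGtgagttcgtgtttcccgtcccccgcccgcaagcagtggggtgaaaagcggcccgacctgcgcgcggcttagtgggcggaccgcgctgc
Pdia6: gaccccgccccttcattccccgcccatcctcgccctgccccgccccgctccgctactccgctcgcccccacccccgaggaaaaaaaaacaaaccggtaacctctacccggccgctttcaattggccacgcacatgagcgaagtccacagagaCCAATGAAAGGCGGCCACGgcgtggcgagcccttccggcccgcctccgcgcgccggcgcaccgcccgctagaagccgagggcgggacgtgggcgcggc
Creld2: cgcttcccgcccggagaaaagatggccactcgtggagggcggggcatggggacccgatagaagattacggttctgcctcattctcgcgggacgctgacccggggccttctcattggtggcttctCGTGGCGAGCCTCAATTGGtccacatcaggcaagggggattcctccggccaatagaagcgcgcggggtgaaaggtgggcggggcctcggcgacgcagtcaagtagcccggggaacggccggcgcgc
Herpud1: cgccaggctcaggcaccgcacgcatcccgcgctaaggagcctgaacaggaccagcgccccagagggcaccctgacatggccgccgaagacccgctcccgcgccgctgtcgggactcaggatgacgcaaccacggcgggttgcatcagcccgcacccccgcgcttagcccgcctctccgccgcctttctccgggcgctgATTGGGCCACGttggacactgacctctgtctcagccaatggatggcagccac

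In Hsp90b1 the elements lay from -212 to -194 on the coding strand and from -107 to -89 on the other strand, counted from the annotated start. The single exact matches of Hspa5 (-65 to -47), Pdia6 (-98 to -80) and Creld2 (-126 to -108, other strand) and the ERSE-II of Herpud1 (-52 to -42) also lay upstream, whereas the ERSE-II of Dnajb11 lay after the start, from 7 to 17. Of the 9 genes with an ERSE, 3 were higher in the KO libraries and the other 6 did not pass the test, so the element was present in genes that changed and in genes that did not pass. Among all genes tested, 11.5% were higher and 11.6% lower at an adjusted p under 0.05. Whether the genes with an ERSE differ from this was not tested.

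**Figure D1:**
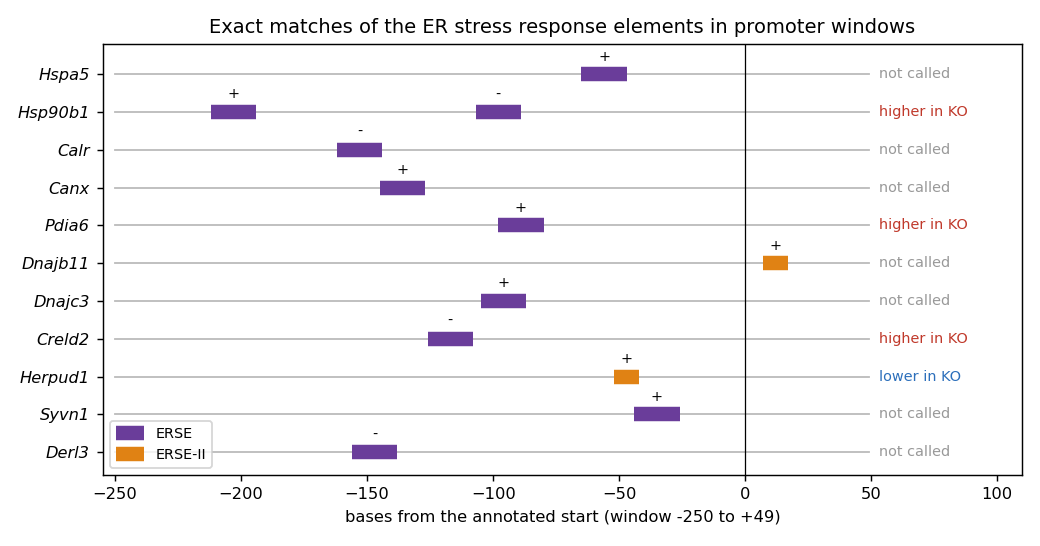
Position of each exact ERSE (purple) and ERSE-II (orange) match in the promoter windows of 11 genes, in bases from the annotated start on the horizontal axis, with the strand of the match (+ or -) above it and the call of the gene between KO and LOXP on the right. Matches lay between -212 and 17, and genes with an ERSE were called higher (3 genes) or were not called (6 genes), beside 11.5% of all tested genes called higher.

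Each library held from 14726983 to 18536985 counted reads, with TMM normalization factors from 0.973 to 1.02, and the first principal component, which held 55.7% of the variance, separated the groups. Of the 57180 genes, 14151 passed the filter on low counts and were compared between KO and LOXP by the quasi-likelihood test of edgeR, and p values were adjusted over all of them (Benjamini-Hochberg). Sting1, the targeted gene, had 19, 16 and 23 counts in LOXP replicates 1 to 3 and 24, 23 and 15 counts in KO replicates 1 to 3, with a log2 fold change of -0.08 (SE 0.30, adjusted p = 0.883), so the counts did not show the knockout and directions below are those of the libraries labelled KO. Depth at Sting1 was low (1.28 and 1.22 CPM on average in LOXP and KO), and the floxed exons were not named in the sources used here. The paper reports, by RT-PCR on purified hepatocytes, that Sting mRNA was lost in the knockout cells. The most abundant markers of hepatocytes were present at high levels, with Alb at 7670 and 6541 FPKM on average in LOXP and KO. Of 15 hepatocyte markers, 12 were lower in the KO libraries and 0 higher (unadjusted p under 0.05: 12 and 0), with a median log2 fold change of -0.59, and their summed level was 11654 to 12180 FPKM in LOXP and 9754 to 9953 FPKM in KO. Cholangiocyte markers were also lower in sum (124 to 145 against 65.7 to 77.0 FPKM), and of 5 tested, 3 were lower and 1 higher. Cldn4, the most abundant, was at a log2 fold change of -1.03 and held most of the sum (111 and 55.8 FPKM on average). The higher one, named after its value was seen, was the keratin Krt19 (2.10 and 3.72 CPM on average, log2 0.82, adjusted p = 0.0479). Epcam, Krt7 and Cftr were too low to be tested. Macrophage markers summed to 62.1 to 74.0 against 47.1 to 55.4 FPKM (67.7 and 51.8 on average), with 2 of 11 tested lower and 0 higher. Most of this difference lay in Cd68, the most abundant, at -0.87 (37.5 and 21.1 FPKM on average). Of the 11, 6 had a log2 fold change below 0 and 5 above it. Cd5l, named after its value was seen, lay higher in all KO libraries (0.94) without passing (adjusted p = 0.0853). Sinusoidal endothelial markers summed to 32.5 to 34.5 against 29.7 to 32.8 FPKM (1 of 9 lower, Cdh5 at 0.01). Stellate cell markers summed to 10.5 to 12.4 against 12.3 to 13.2 FPKM (0 of 8 called, 1 at an unadjusted p under 0.05, Sparc at -0.04). The 10 B and plasma cell markers had 40 counts in all 6 libraries together. In bulk RNA, fewer cells of a type and less RNA per cell cannot be told apart, and the part of these marker differences in the results below was not tested.

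Across the 35 stress response genes, 6 were higher and 6 lower in the KO libraries at an adjusted p under 0.05, and 23 did not pass. The share of all tested genes that passed was 23.1% (11.5% higher and 11.6% lower) and that of the 35 was 34.3%. All 35 passed the filter, and their mean levels ran from 0.309 FPKM (Derl3) to 143 FPKM (Calr). Log2 fold changes ran from -0.77 to 0.60 with a median of 0.06, beside 0.00 over all genes tested. Since every change was under 2-fold, 0 of the 35 met the study's own criteria (absolute log2 fold change above 1, adjusted p under 0.05, mean FPKM above 1 in a group), also in each of the 14 alternative analyses, against 2.05% of all tested genes. The KO libraries lay wholly above the LOXP libraries for 11 genes and wholly below for 8, where 20.4% and 20.3% of all tested genes did so. With 3 libraries against 3, an exact two-sided permutation test of 1 gene cannot give a p under 0.1, and each of these 19 genes had that value. All 6 higher genes were chaperones and folding enzymes, and the 6 lower genes came from degradation, from the sensors and from the ATF4-CHOP branch. The called share was 42.9% of the chaperones and 50% of the 4 sensors, and 22.2% of the degradation and 25% of the ATF4-CHOP genes, which are near the 23.1% of all genes. Whether the branches differ from each other was not tested.

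**Figure D2:**
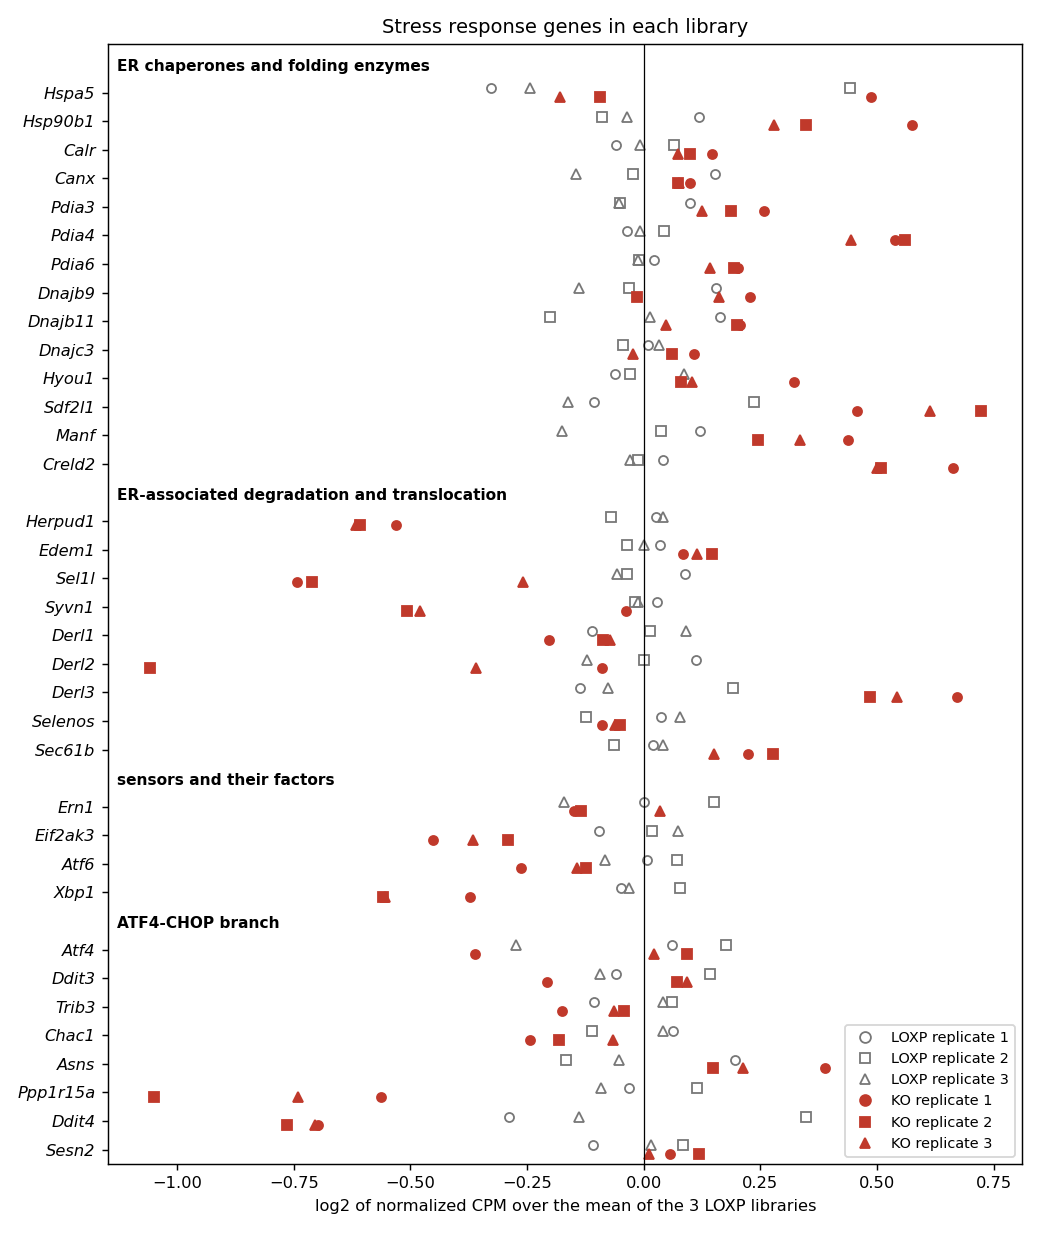
Normalized CPM of each of the 35 genes in each library, as log2 over the mean of the 3 LOXP libraries (horizontal axis), in 4 branches. Grey open symbols are LOXP and red filled symbols KO, with 1 symbol shape per replicate number. Red symbols lie to the right of the grey ones for Pdia4, Creld2 and Hsp90b1 and to the left for Herpud1, Xbp1, Ppp1r15a and Ddit4.

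Of the 14 ER chaperones and folding enzymes, 6 were higher in the KO libraries and 0 lower, and all 14 had a log2 fold change above 0 (median 0.18, range 0.05 to 0.60). Normalized CPM, the counts scaled to library size, are given after TMM scaling, for replicates 1, 2 and 3 in this order. Pdia4, a protein disulfide isomerase (chromosome 6, 47773075 to 47790364, build GRCm39), had 112, 119 and 114 CPM in LOXP and 167, 170 and 157 CPM in KO. The groups were well apart, and the fold of KO over LOXP was 1.43 (log2 0.52, SE 0.06, adjusted p = 0.000648). Creld2, an ER-resident protein with disulfide isomerase activity (chromosome 15, 88703849 to 88710886), had 30.8, 29.7 and 29.3 CPM in LOXP against 47.4, 42.6 and 42.3 CPM in KO. All KO libraries lay above all LOXP libraries, 1.47-fold in the fit (log2 0.56, SE 0.07, adjusted p = 0.00136). Sdf2l1, a partner of BiP (chromosome 16, 16948002 to 16950247), had the largest fold of the 35 genes in the higher direction, 1.52 (log2 0.60, SE 0.13, adjusted p = 0.0139). It went from 10.5, 13.3 and 10.1 CPM in LOXP to 15.5, 18.6 and 17.3 CPM in KO, again without overlap.

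Hsp90b1, which encodes the ER chaperone GRP94 (chromosome 10, 86526073 to 86541373), had 295, 256 and 265 CPM in LOXP and 406, 347 and 331 CPM in KO. KO replicate 1 was the highest, and the fold was 1.33 (log2 0.41, SE 0.09, adjusted p = 0.0123). Manf, a secreted ER stress protein (chromosome 9, 106715511 to 106769178), had 75.7, 71.4 and 61.6 CPM in LOXP and 94.3, 82.4 and 87.7 CPM in KO (fold 1.27, log2 0.34, SE 0.09, adjusted p = 0.0291). The table's interval of Manf overlaps Dcaf1 and Rbm15b, which had 97.9% and 94.2% as many counts, and since the strand setting of the counting was not given, reads on shared stretches cannot be assigned with certainty. Pdia6, another disulfide isomerase (chromosome 12, 17316546 to 17334771), had the smallest change among those called. It had 194, 189 and 189 CPM in LOXP and 220, 218 and 211 CPM in KO, a narrow but complete separation of 1.13-fold (log2 0.18, SE 0.05, adjusted p = 0.0309). The Pdia6 call did not hold with edgeR's exact test, with a looser filter on low counts, or without LOXP replicate 2 or 3 or any 1 KO replicate (adjusted p up to 0.118), and that of Manf did not hold without LOXP replicate 2 or 3 or KO replicate 1 or 3 (up to 0.0916), and that of Sdf2l1 without KO replicate 2 (0.0563).

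Hspa5, which encodes BiP, the most abundant ER chaperone of the Hsp70 family and the usual marker of this response, did not pass the test. It had 602, 1026 and 637 CPM in LOXP and 1059, 708 and 666 CPM in KO. LOXP replicate 2 and KO replicate 1 stood above the other 4 libraries, so the groups overlapped widely and the log2 fold change of 0.10 had an SE of 0.23 (adjusted p = 0.792). It became -0.13 without KO replicate 1 and 0.39 without LOXP replicate 2. The lectin chaperones differed little. Calr had 564, 615 and 585 CPM in LOXP and 651, 630 and 618 CPM in KO, which did not overlap by a small margin (log2 0.11, SE 0.05, adjusted p = 0.169), and Canx overlapped (log2 0.08, SE 0.07, adjusted p = 0.474). Pdia3, the disulfide isomerase that works with these lectins, lay just outside the threshold (445, 401 and 401 CPM against 497, 474 and 454 CPM, log2 0.19, SE 0.06, adjusted p = 0.0538). It passed in 4 of the 14 alternatives, among them both limma-trend fits (adjusted p = 0.0402 and 0.0399) and the fit without LOXP replicate 1 (0.0206). The BiP cochaperones Dnajb9, Dnajb11 and Dnajc3 were at log2 fold changes of 0.13, 0.15 and 0.05, and Hyou1, the exchange factor of BiP, was at 0.17, with adjusted p from 0.187 to 0.574.

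KO libraries lay wholly above LOXP for 8 of the 14 chaperones, where 20.4% of all tested genes did so. Within the branch, KO replicate 1 was the highest of the 6 libraries for 11 genes and KO replicate 2 for 2, and for Canx LOXP replicate 1 was. The lowest library was a LOXP library for all 14 genes (LOXP replicate 3 for 7, replicate 1 for 4 and replicate 2 for 3). Without KO replicate 1, Hsp90b1, Pdia4, Sdf2l1 and Creld2 were still called, with Hsp90b1 at a log2 fold change of 0.32. Summed over the branch, the level was 650, 675 and 621 FPKM in LOXP and 830, 741 and 731 FPKM in KO, or 648.6 ± 26.8 and 767.3 ± 54.9 FPKM (mean ± SD, n = 3). This is 18.3% more in KO, or 15.4% more when the deposited FPKM are divided by the TMM factors. The 3 KO values lay above the 3 LOXP values. The part of the marker differences in this sum was not tested.

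**Figure D3:**
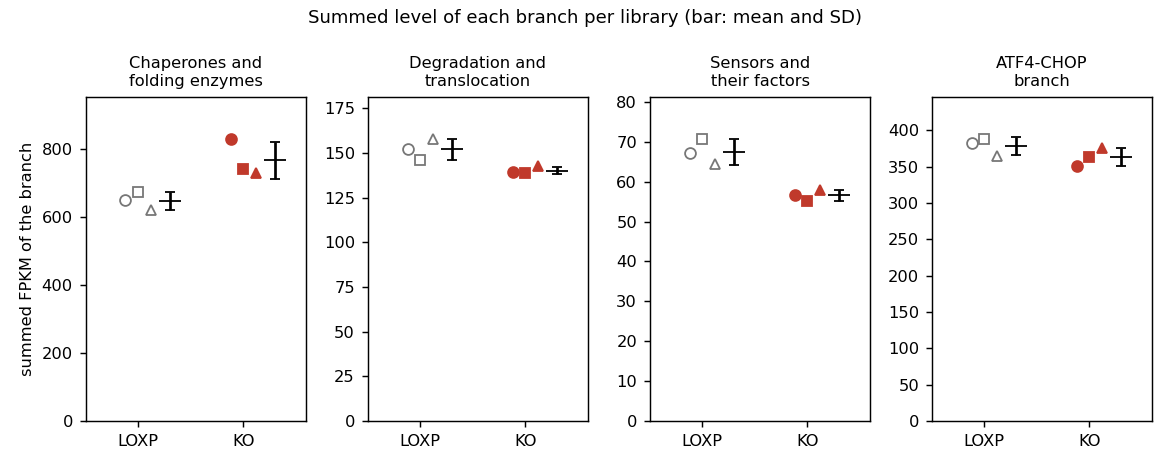
Summed FPKM of each branch in each library (vertical axis, from 0), with LOXP as grey open and KO as red filled symbols, 1 shape per replicate number, and the mean ± SD (n = 3) beside them. The chaperone sum was higher in all KO libraries, those of degradation and of the sensors were lower in all KO libraries, and that of the ATF4-CHOP branch overlapped. All sums are of the deposited FPKM without TMM scaling. Most of the difference lay in Herpud1 for degradation and in Xbp1 for the sensors.

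Among the 9 genes of ER-associated degradation and translocation, 2 were lower in the KO libraries and 0 higher at an adjusted p under 0.05 by edgeR (3 and 1 at an unadjusted p under 0.05). Their median log2 fold change was -0.12. Herpud1, an ER membrane protein of the degradation complex (chromosome 8, 95113066 to 95122005), had 163, 153 and 165 CPM in LOXP and 111, 105 and 105 CPM in KO. It was lower in all 3 KO libraries, at 0.666 of the LOXP level (log2 -0.59, SE 0.06, adjusted p = 0.000384), the smallest adjusted p among the 35 genes. Sel1l, the adaptor of the ubiquitin ligase HRD1 (chromosome 12, 91772817 to 91815931), had 118, 108 and 107 CPM in LOXP and 66.2, 67.8 and 92.8 CPM in KO. KO replicate 3 stood nearer to LOXP than the other 2 (log2 -0.55, SE 0.13, adjusted p = 0.0160), and the call did not hold without KO replicate 1 or 2 (adjusted p up to 0.0624).

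Syvn1, which encodes HRD1 itself, was split within the KO group, with 63.0, 60.9 and 61.2 CPM in LOXP and 60.1, 43.4 and 44.3 CPM in KO. KO replicate 1 was just under the LOXP libraries and the other 2 far below, and the log2 fold change of -0.33 (SE 0.12) did not pass (adjusted p = 0.0912). It passed without KO replicate 1, at -0.49, and with DESeq2, at -0.33 (adjusted p = 0.0476), which made 3 lower genes of this branch and 7 of the 35. Derl2, a derlin of the export channel, was uneven as well (61.6, 57.0 and 52.4 CPM against 53.6, 27.4 and 44.4 CPM, log2 -0.45, SE 0.21, adjusted p = 0.157). Both intervals overlap another gene, Mrpl49 for Syvn1 and Mis12 for Derl2, with 45.5% and 51.0% as many counts. Derl3, the least abundant of the 35 genes, lay higher in all KO libraries (0.947, 1.19 and 0.988 against 1.66, 1.46 and 1.52 CPM, log2 0.57, SE 0.25) without passing (adjusted p = 0.139). Derl1, another derlin, was at -0.12, the selenoprotein Selenos of the same complex at -0.07 and Edem1, a lectin that picks misfolded glycoproteins, at 0.12, with adjusted p from 0.168 to 0.562. Sec61b, a subunit of the channel through which new proteins enter the ER, had 41.7, 39.3 and 42.3 CPM in LOXP and 47.9, 49.8 and 45.6 CPM in KO. These did not overlap, with a log2 fold change of 0.22 (SE 0.07) just outside the threshold (adjusted p = 0.0536). The summed level was 152.0 ± 5.9 FPKM in LOXP and 140.1 ± 2.1 FPKM in KO (mean ± SD, n = 3). It was 7.84% lower in KO, or 10.1% lower when the deposited FPKM are divided by the TMM factors. Most of the difference in deposited FPKM lay in Herpud1 (31.8 and 21.7 FPKM on average in LOXP and KO).

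All 4 sensors and factors had a log2 fold change below 0, and 2 of them were lower in the KO libraries by the test. Xbp1, the transcription factor of the IRE1 arm (chromosome 11, 5470659 to 5475893), had 155, 169 and 157 CPM in LOXP and 124, 109 and 109 CPM in KO. Every KO library was below every LOXP library, at 0.711 of the level (log2 -0.49, SE 0.07, adjusted p = 0.00206). Eif2ak3, which encodes the sensor kinase PERK (chromosome 6, 70821499 to 70882229), had 21.0, 22.7 and 23.6 CPM in LOXP and 16.4, 18.3 and 17.4 CPM in KO (0.775 of the level, log2 -0.37, SE 0.09, adjusted p = 0.0213). This call did not hold without LOXP replicate 2 or 3 or KO replicate 1 or 3, nor with limma-trend on FPKM (adjusted p up to 0.0808). Atf6 had 185, 193 and 174 CPM in LOXP and 153, 169 and 166 CPM in KO, lower in each KO library but not past the threshold (log2 -0.18, SE 0.06, adjusted p = 0.0855). Ern1, which encodes IRE1, had 171, 190 and 152 CPM in LOXP and 154, 156 and 175 CPM in KO. Its groups overlapped, with a log2 fold change of -0.08 (SE 0.09, adjusted p = 0.573). The summed level of the 4 was 67.4 ± 3.2 FPKM in LOXP and 56.6 ± 1.4 FPKM in KO (mean ± SD, n = 3). It was 16.0% lower in KO, or 18.1% lower when the deposited FPKM are divided by the TMM factors. Most of the difference in deposited FPKM lay in Xbp1 (29.4 and 21.4 FPKM on average in LOXP and KO). Here too the part of the marker differences was not tested.

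**Figure D4:**
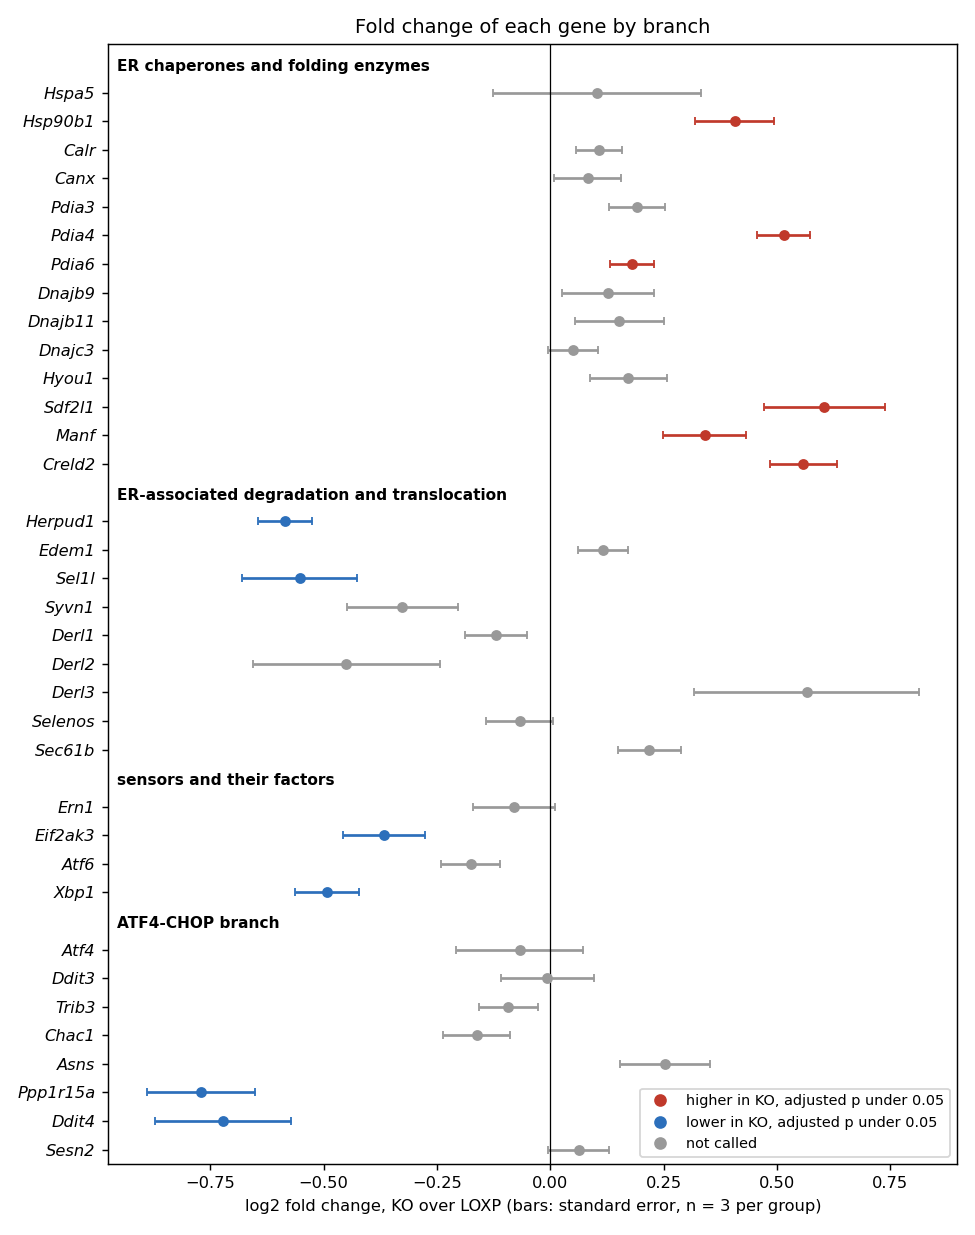
Log2 fold change of KO over LOXP for each of the 35 genes (horizontal axis), with its SE as a bar (n = 3 libraries per group), in 4 branches. Red points are higher and blue points lower at an adjusted p under 0.05, and grey points were not called. All red points are chaperones and folding enzymes, between 0.18 and 0.60, and the blue points lie between -0.77 and -0.37 in the other 3 branches.

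In the ATF4-CHOP branch, 2 of 8 genes were lower in the KO libraries and 0 higher by edgeR (2 and 1 at an unadjusted p under 0.05), with a median log2 fold change of -0.08. Ppp1r15a, which encodes GADD34, the phosphatase subunit that reverses eIF2 phosphorylation (chromosome 7, 45172340 to 45175692), had the most negative change of the 35 genes. It had 116, 129 and 111 CPM in LOXP and 80.4, 57.4 and 71.0 CPM in KO, at 0.586 of the LOXP level (log2 -0.77, SE 0.12, adjusted p = 0.00271). Ddit4, an inhibitor of the growth kinase complex mTORC1 (chromosome 10, 59785491 to 59787656), had 51.1, 79.5 and 56.8 CPM in LOXP and 38.5, 36.7 and 38.3 CPM in KO. The KO libraries were nearly equal and all below LOXP, where replicate 2 stood above the other 2 (0.606 of the level, log2 -0.72, SE 0.15, adjusted p = 0.0104). Both calls held in each of the 14 alternative analyses.

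The transcription factors for which the branch is named did not pass. Atf4 had 284, 308 and 225 CPM in LOXP and 212, 291 and 277 CPM in KO. The lowest libraries were 1 of each group, and the log2 fold change of -0.07 had an SE of 0.14 (adjusted p = 0.773). Ddit3, which encodes CHOP, had 51.0, 58.7 and 49.8 CPM in LOXP and 46.1, 55.9 and 56.7 CPM in KO, which overlapped fully (log2 -0.01, SE 0.10, adjusted p = 0.974). The interval of Ddit3 overlaps that of Mars1, which had 326% as many counts, and a second Ddit3 entry of the table, with 1 count in each library, was not tested. Trib3, a pseudokinase induced by ATF4 and CHOP, was at 206 ± 13 CPM in LOXP and 193 ± 9 CPM in KO (mean ± SD, n = 3), with a log2 fold change of -0.09 (adjusted p = 0.357). Chac1, an enzyme that degrades glutathione, was at -0.16 (adjusted p = 0.152) and Sesn2, an inhibitor of mTORC1, at 0.06 (adjusted p = 0.552). Asns, asparagine synthetase, went the other way, with 260, 203 and 219 CPM in LOXP and 298, 252 and 264 CPM in KO. LOXP replicate 1 lay within the KO range, and the log2 fold change of 0.25 (SE 0.10) was not past the threshold (adjusted p = 0.106). Without LOXP replicate 1 it was 0.36 and passed. LOXP replicate 2 was the highest library for 5 of the 8 genes and KO replicate 1 the lowest for 4. The summed level of the branch was 379 ± 12 FPKM in LOXP and 364 ± 12 FPKM in KO (mean ± SD, n = 3). It was 4.0% lower in KO, with groups that overlapped in the deposited FPKM without TMM scaling. The change was -6.34% when the deposited FPKM are divided by the TMM factors.

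Other genes of the same pathways were counted from lists that hold none of the 35. Of 36 further target genes of ATF4, 35 were tested, and 11 were higher and 5 lower in the KO libraries (14 and 7 at an unadjusted p under 0.05), with a median log2 fold change of 0.11. The called share was 45.7%, beside 23.1% of all tested genes, and this difference was not tested. The higher ones included the cystine transporter Slc7a11, with 177, 198 and 141 CPM in LOXP and 385, 421 and 398 CPM in KO (2.34-fold, log2 1.22, SE 0.11, adjusted p = 0.000247), and the serine synthesis enzyme Phgdh (1.51-fold, log2 0.60, SE 0.06, adjusted p = 0.000292). Yars1, tyrosyl-tRNA synthetase, was lower, with 220, 216 and 230 CPM in LOXP and 124, 127 and 132 CPM in KO (0.574 of the level, log2 -0.80, SE 0.06, adjusted p = 7.12e-05). Named after its value was seen, the hepatokine Fgf21 had 10.3, 8.81 and 11.6 CPM in LOXP and 2.87, 1.83 and 2.62 CPM in KO (log2 -2.07, SE 0.20, adjusted p = 0.000311). The further ATF4 targets thus held genes at both ends, with all KO libraries of Slc7a11 above and all of Fgf21 and Yars1 below LOXP.

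Among 12 genes of the eIF2 kinases, eIF2 and its exchange factor eIF2B, 4 were higher and 0 lower (7 and 1 at an unadjusted p under 0.05), with a median of 0.18. The called share was 33.3%, beside 23.1% of all tested genes. Eif2b3 and Eif2b5, subunits of eIF2B, were at 0.54 and 0.22, and Eif2s1, the subunit that the kinases phosphorylate, at 0.32 (179, 156 and 157 CPM against 217, 197 and 198 CPM, SE 0.07, adjusted p = 0.0156). Of 7 relatives of ATF6 and their proteases, 6 were tested, a called share of 33.3%, and 2 were lower and 0 higher (2 and 0 at an unadjusted p under 0.05). These were Creb3l3, a liver-enriched membrane-bound factor of lipid metabolism (100, 111 and 112 CPM against 73.1, 67.7 and 73.7 CPM, log2 -0.59, SE 0.07, adjusted p = 0.000844), and Creb3l2 (log2 -0.53, SE 0.10, adjusted p = 0.00754), while Creb3l1, at 2.73 and 3.63 CPM on average, was at 0.41 (adjusted p = 0.207). Ern2 had no count in any library.

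Further genes of the ER machinery were counted in the same way. Of 18 other ER folding and oxidation genes, 2 were higher (the prolyl isomerase Fkbp11, 0.42, and Pdia5, 0.28) and 1 lower (Fkbp2, -0.51), with a median of 0.00. The called share of this list was 16.7%, beside 23.1% of all tested genes, and its difference from the 14 chaperones was not tested. Of 23 other degradation and translocon genes, 3 were lower and 1 higher, with a median of -0.05. At an unadjusted p under 0.05, 4 were lower and 6 higher. The called share was 17.4%, below that of all tested genes. The lower ones were Spcs2 of the signal peptidase (-0.55), the lectin Os9 (-0.39) and the cochaperone Dnajb12 (-0.34), and the higher one, named after its value was seen, was Sec61a1, the pore of the translocation channel (0.25). Chaperones outside the ER were tallied beside them. In the cytosolic heat shock list 4 of 12 genes (33.3%) were higher and 0 lower (4 and 0 at an unadjusted p under 0.05), with a median of 0.05. Among the higher ones were Hspa8 (0.36), Hsp90aa1 (0.50) and Hsp90ab1 (0.25). Of 10 mitochondrial chaperones and proteases, 1 (10%) was higher and 0 lower (3 and 1 at an unadjusted p under 0.05). It was Hspd1, the mitochondrial Hsp60, with 653, 612 and 603 CPM in LOXP and 893, 852 and 838 CPM in KO (1.38-fold, log2 0.47, SE 0.05, adjusted p = 0.000583), while Dnaja3 (0.31, adjusted p = 0.0624) and Hspe1 (0.16, adjusted p = 0.0681) did not pass.

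**Figure D5:**
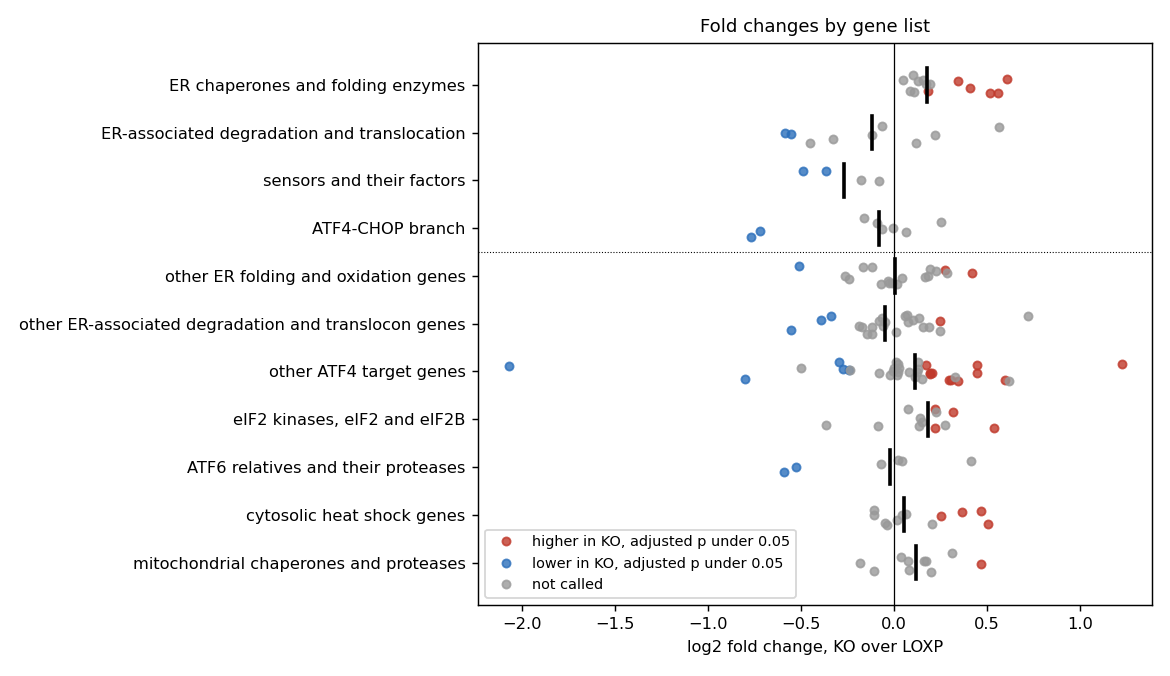
Log2 fold change of KO over LOXP (horizontal axis) for every tested gene of the 4 branches (above the dotted line) and of 7 further lists (below it), 1 point per gene, red where higher and blue where lower at an adjusted p under 0.05. Thick bars are list medians, from -0.27 for the sensors to 0.18 for the chaperones and for the eIF2 list, and the thin line is the median of all 14151 genes tested, at 0.00. Points are moved up or down within a list only to keep them apart.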

How the data were processed

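RNA of 6 libraries (LOXP and KO, 3 each, grouped by their labels) was sequenced as paired-end reads. The submitters' processing notes name fastp, HISAT2, StringTie, edgeR and build GRCm39. The annotation, the counting tool and the strand setting were not given in the sources used here. The authors deposited 1 table of 57180 genes with whole-number read counts, without normalization, and FPKM values, which the authors scaled to gene length and counted reads. Counts were filtered with filterByExpr (minimum count 10), scaled by TMM and tested two-sided with edgeR 4.0.16 (glmQLFit, glmQLFTest; R 4.3.3), with Benjamini-Hochberg adjustment over 14151 genes. FPKM served for levels compared or summed between genes. Replicates differed by more than counting noise (chi-square per degree of freedom 7.20 to 15.4), and the biological coefficient of variation was 0.118. Every gene of the 35 is named, and of each other list the 3 genes with the smallest adjusted p, of each marker list the most abundant, and any other gene as named after its value was seen. Members and lists were chosen with earlier results of these data known. Promoter windows came from RefSeq (GRCm38.p6) by symbol, and their coordinates were never mixed with the table's GRCm39 positions. Windows were not used here for Hyou1, Manf, Atf6 and Derl1. Steps were tested on simulated data. The alternatives were upper-quartile factors, DESeq2 1.42.0 (no adjusted p for 8 genes), the exact test, 2 other filters, limma-trend (limma 3.58.1) on log2(FPKM + 1) and log2(FPKM + 0.1), the replicate number as a block, and each library left out in turn.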

Additional observations from a re-analysis of the deposited data

How the results depend on the processing

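Of the 12 calls, 7 (Hsp90b1, Pdia4, Creld2, Herpud1, Xbp1, Ppp1r15a and Ddit4) held in all 14 alternatives. All 12 held with upper-quartile factors, DESeq2, a filter of 10 counts per library, the replicate block and without LOXP replicate 1, 11 with the exact test, with every gene of at least 1 count and with each limma-trend, and 8 or 9 without any other library. With 1 library left out, 4 to 8 genes were higher and 5 to 6 lower, the lower degradation genes ranged from 1 to 2 (1 without KO replicate 2) and the higher ATF4-CHOP genes from 0 to 1. DESeq2 added 1 lower gene (Syvn1). Each limma-trend called 1 degradation gene higher (Sec61b). Log2 fold changes that turned sign, none of them called, ranged over the left-out libraries from -0.13 to 0.39 for Hspa5, from -0.16 to 0.0022 for Ern1, from -0.19 to 0.061 for Atf4 and from -0.056 to 0.085 for Ddit3, which was at 0.025 with log2(FPKM + 1) and 0.025 with log2(FPKM + 0.1). The causes were not tested. Same-numbered libraries deviated together only weakly (correlations 0.146, 0.0719 and 0.0339 for numbers 1, 2 and 3), and LOXP replicate 3 correlated more with KO replicate 2 (0.0375) than with its own number. With the replicate number as a block, 8 genes were higher, with Pdia3 and 1 ATF4-CHOP gene (Asns) added, and 6 lower. Depth limits Derl3, at under 2 CPM in every library.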

Other observations

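The ERSE was also found in the promoter windows of 9 tested genes outside the 35. Of these, Zfp57 was higher in the KO libraries, Spats2l, Acnat2, Acacb and Xlr3a were lower, and the other 4 were not called, so that 4 of the 18 tested genes with an ERSE were higher and 4 lower. These genes were named after their calls were seen. ERSE-II was found in 7 tested genes outside the 35, of which 0 were called by edgeR. The response element of ATF4 targets was found in 59 tested genes, of which 8 were higher and 9 lower, and Fgf21 and the tRNA synthetase genes Gars1, Aars1 and Iars1 were among those with it. Among all genes tested, 11.5% were higher and 11.6% lower. Whether the genes with any of these elements differ from this was not tested.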
